A study of Rattus norvegicus with 15 samples.

Results

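Primary rat hepatocytes exposed to 1,5-naphthalenediol were compared with hepatocytes exposed to naphthalene, the parent compound, on 6 of the 15 arrays of the study. The members are the 3 arrays labelled 1,5-naphthalenediol, and the comparison is with the 3 labelled naphthalene. Naphthalene carries no hydroxyl group, whereas 1,5-naphthalenediol (the diol) carries a hydroxyl group on each of its rings. All groups used cryopreserved primary hepatocytes from male Wistar rats (spelled "Wister" in the design text), plated for 24 h and then kept for a further 24 h with a compound at 30 µM or with the solvent DMSO. Dose and time were thus the same for both compounds, and this was 1 compound pair. Each condition had 3 experiments that the design text calls independent. The sources used here give neither the donors' age nor whether the experiments used different donors, so p-values measure the spread between these samples.

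As background, naphthalene is an unsubstituted aromatic hydrocarbon that liver cytochrome P450 enzymes oxidise before it is conjugated, while the diol already carries groups to which glucuronic acid or sulfate can be attached. A pair of sensors is known for its response to aromatic and redox-active chemicals in liver. The aryl hydrocarbon receptor (AhR) binds flat aromatic molecules and drives P450 genes of family 1 and some aldehyde dehydrogenase and reductase genes. NRF2 is freed from its inhibitor KEAP1 by electrophiles such as quinones and drives genes of glutathione use, quinone reduction and NADPH supply.

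The arrays lay on 2 slides, and the groups were not spread evenly over them. Diol replicates 1 and 2 were on slide 1 with DMSO and 2,7-naphthalenediol, and diol replicate 3 was on slide 2 with naphthalene and 1-naphthol. A gene's level below is the log2 intensity minus the 75th percentile of its own array, so that 0 equals that percentile, and a difference is diol minus naphthalene on the log2 scale ± standard error. Between 57.4% and 61% of gene spots stood clear of background on the 15 arrays, and their 75th percentiles ranged from 1718 to 2074 intensity units. Genome-wide, the standard deviation of the log2 difference between arrays was 0.214 for diol 1 and 2, 0.287 to 0.292 between these and diol 3, and 0.225 to 0.276 among the naphthalene arrays. Diol 3 differed from the naphthalene arrays by 0.283 to 0.326, and diol 1 and 2 by 0.349 to 0.382. All 10 hepatocyte markers, from albumin (Alb) to apolipoprotein B (Apob), were well above background in both groups. Markers of other cells were mostly dim: 4 of 10 stellate cell and fibroblast markers, 2 of 10 macrophage markers, 3 of 9 endothelial markers, 2 of 8 bile duct markers and 1 of 8 lymphocyte markers on the arrays were well above background in both groups. In bulk RNA, fewer cells of a type and less RNA per cell cannot be told apart.

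Of 19783 genes tested, 4935 (24.9%) differed between the compounds in limma at a Benjamini-Hochberg adjusted p below 0.05, 2233 (11.3%) higher and 2702 (13.7%) lower with the diol. Most differences were small, and 125 genes (0.632%) differed by 2-fold or more, 75 higher and 50 lower. The split between higher and lower moved with the scaling: 45.2% of calls were higher here, and 60.1% (2877 higher, 1908 lower) when each array's median was subtracted instead, which moved the median difference of all genes from -0.02 to 0.02. Direction was then read from diol 3 alone, the array that shares its slide with naphthalene. Diol 3 is part of the group mean that made the calls, so its sign in these genes is no separate check. It had the same sign in 4873 of the 4935 called genes (98.7%), and the 62 genes that turned sign were all among the lower ones. When genes were called without diol 3, its sign was the same in 85.2% of them, a share for which both sides still use the same naphthalene arrays. The 2 groups did not overlap for 4543 of the called genes, where 34.4% of all genes tested did not overlap. With the slide as a fixed block, which rests the difference on diol 3, 1470 genes passed the test in the same direction, 648 higher and 822 lower, and 68 of the 125 genes of 2-fold or more. Without diol 3 the 2-fold count was 281. The scatter of called genes across and within slides shows both readings of each gene.

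**Figure D1:**
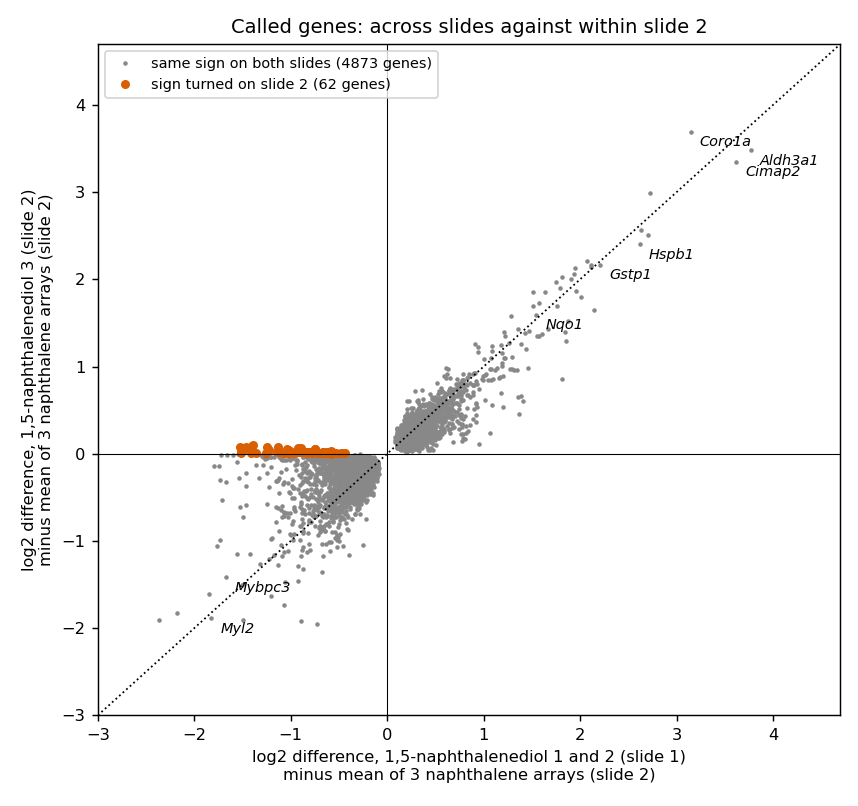
Each point is 1 of the 4935 called genes; the x axis gives the log2 difference of diol 1 and 2 (slide 1) from the mean of the 3 naphthalene arrays (slide 2), and the y axis that of diol 3 (slide 2). Points on the dotted diagonal differ equally on both; 4873 genes keep their sign, and the 62 coloured genes, all lower on the x axis, lie near 0 on the y axis.

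The AhR-linked genes Aldh3a1, Cyp1a1 and Nqo1 were among the largest increases with the diol. Aldh3a1, an aldehyde dehydrogenase that AhR ligands induce, read -3.85, -3.89 and -4.16 on diol replicates 1 to 3 and -7.81, -7.54 and -7.58 on naphthalene replicates 1 to 3. It was well above background on every diol array and on no naphthalene array. It was therefore at least 7.54-fold higher with the diol (measured difference 3.68 ± 0.105, adjusted p = 7.96e-10). The bound sets the dim group at the lowest signal well above background, array by array.

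Cyp1a1 encodes the P450 that oxidises many polycyclic aromatics. Its level was 2.08, 1.75 and 2.09 with the diol and -0.04, -0.13 and 0.06 with naphthalene, without overlap, a difference of 2.01 ± 0.121 (4.03-fold, adjusted p = 1.13e-06). On slide 2 alone the difference was 2.13. The related Cyp1a2, the constitutive liver member of the family, had levels of 0.05 to 0.17 with the diol and 0.02 to 0.31 with naphthalene. The groups overlapped, with a difference of -0.08 and a 95% confidence interval of -0.22 to 0.06 (adjusted p = 0.376). Nqo1, a quinone reductase under both AhR and NRF2, read 1.00, 0.90 and 1.00 against -0.59, -0.72 and -0.48. It was 2.96-fold higher (1.56 ± 0.0595, adjusted p = 1.48e-08), and 1.60 higher by diol 3 alone.

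Among the 12 tested genes of the AhR list, 6 were higher and 1 was lower with the diol. The shares of all genes were 11.3% and 13.7%. The list's median difference was 0.15, and 0.17 on slide 2, beside -0.02 over all genes. Of the 7 calls 3 also passed with the slide block. The 6 include Tipin, a replication fork gene (0.15, adjusted p = 0.0264), whose link to AhR was not checked. The AhR repressor gene Ahrr, picked out after its value was seen, was at least 2.12-fold higher (1.71 ± 0.394, adjusted p = 0.00938, and 0.0743 with the slide block), and dim on all naphthalene arrays. Nfe2l2, which encodes NRF2, was higher by 0.23 ± 0.0455 (adjusted p = 0.0045, and 0.0665 with the block). The lower member was Cyp2s1, an extrahepatic P450, at -0.21 ± 0.0482 (adjusted p = 0.0083, and 0.0603 with the block).

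**Figure D2:**
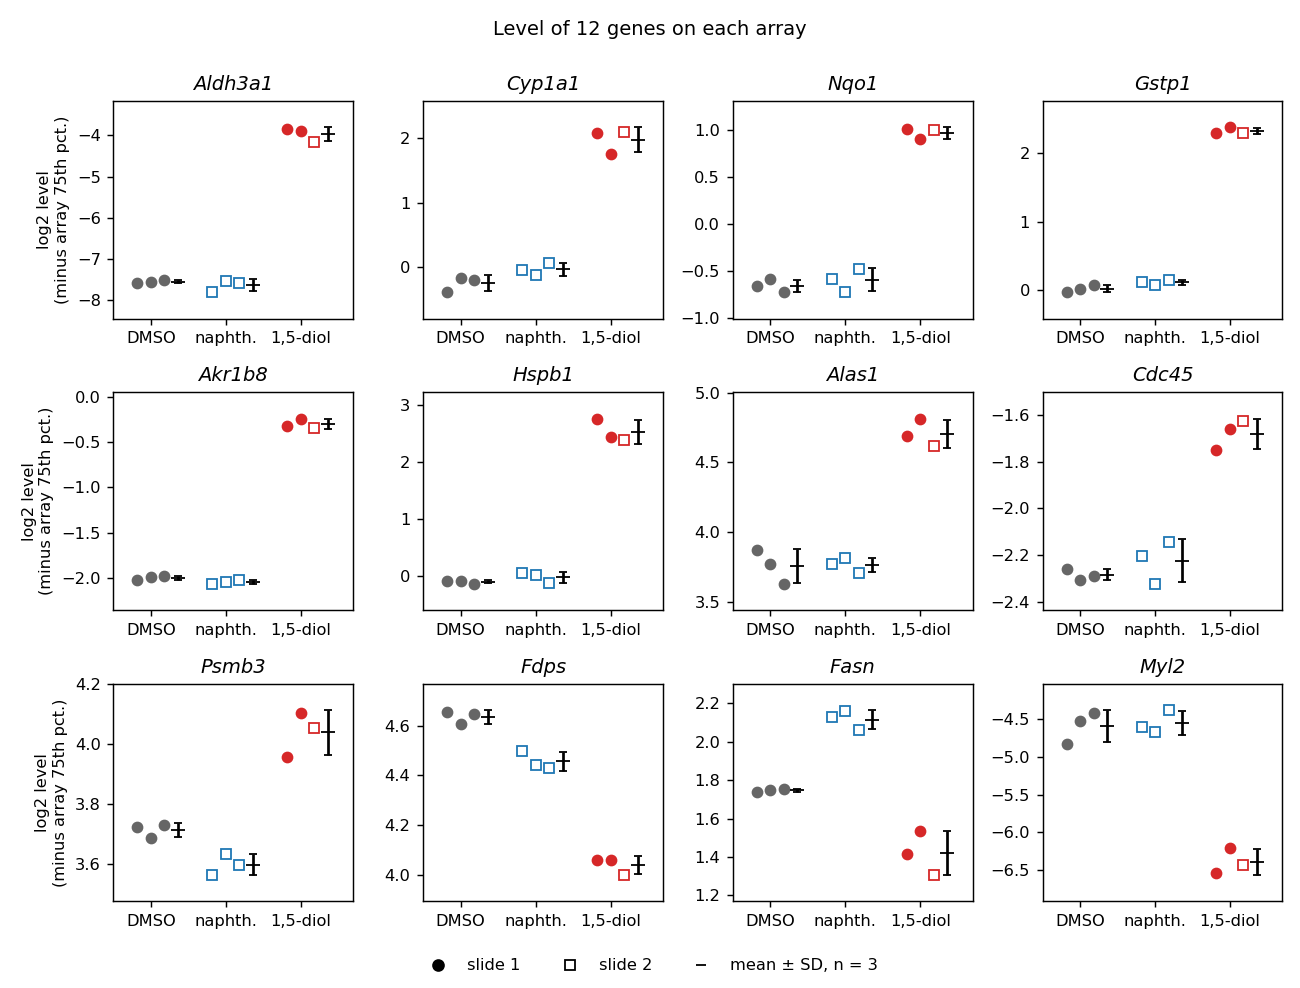
Level of 12 genes on each DMSO, naphthalene and 1,5-naphthalenediol array (y axes: log2 intensity minus the array's 75th percentile; each panel has its own scale), with filled circles for slide 1, open squares for slide 2 and bars for mean ± SD (n = 3). For all 12 genes the 3 diol arrays lie outside the range of the 3 naphthalene arrays, and diol 3 lies with diol 1 and 2. The 12 are called genes, and 4543 of all 4935 called genes have groups that do not overlap.

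Genes of the NRF2 programme were higher with the diol in 21 of 43 members tested, where 11.3% of all genes were higher. Gstp1, the pi-class glutathione transferase that is scarce in normal rat hepatocytes, read 2.28, 2.37 and 2.29 with the diol and 0.12, 0.08 and 0.15 with naphthalene. It was 4.57-fold higher (2.19 ± 0.0423, adjusted p = 3.46e-11), and its other probe gave 2.18. Naphthalene and DMSO differed by 0.09 for this gene. Akr1b8, an aldo-keto reductase that clears reactive aldehydes, read -0.33, -0.24 and -0.34 against -2.06, -2.04 and -2.02. The spread within each group was far below the 3.33-fold difference (1.74 ± 0.0474, adjusted p = 5.49e-10). Akr7a3, an aflatoxin aldehyde reductase, read 4.67, 4.74 and 4.60 against 3.83, 3.78 and 3.84 (difference 0.86 ± 0.0446, adjusted p = 4.08e-07).

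The list of NRF2 targets and redox genes also had 4 members lower, with a median difference over all 43 of 0.19 (0.14 on slide 2), and 12 of its 25 calls also passed with the slide block. Among the lower members, Sqstm1 (-0.15) had another probe called with the opposite sign, and its highest probe gave 0.50. For Mafg (-0.27) the other probe gave 0.14. Malic enzyme Me1, which supplies NADPH, was higher by 0.19 ± 0.0342 (adjusted p = 0.00211). Hmox1, the heme oxygenase, was at -0.40, -0.50 and -0.49 with the diol and at -1.05, -1.03 and -1.04 with naphthalene. Its difference of 0.58 ± 0.0687 (adjusted p = 0.000165) was made up of 0.17 for the diol against DMSO (adjusted p = 0.11) and -0.41 for naphthalene against DMSO (adjusted p = 0.0032). These contrasts with DMSO called 22.2% and 25.2% of all genes, and naphthalene and DMSO share no slide. The rate-limiting glutathione synthesis gene Gclc and the thioredoxin reductase Txnrd1 were higher by 0.22 ± 0.0549 and 0.25 ± 0.0746 (adjusted p = 0.014 and 0.0305). The Gclc call ended without naphthalene 1 (adjusted p = 0.0526), and that of Txnrd1, whose groups overlapped, without diol 1, diol 3, naphthalene 1 or naphthalene 3 (adjusted p up to 0.113). Sulfiredoxin Srxn1 missed the threshold, at 0.22 (interval 0.04 to 0.39, adjusted p = 0.0673). The lower member with the smallest adjusted p was Txnip, which binds and inhibits thioredoxin, at -0.72 ± 0.0793 (adjusted p = 0.000102), and -0.52 on slide 2. Against DMSO it differed by -0.26 with the diol and by 0.46 with naphthalene.

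The 250 bases before the start of these genes were searched for the core letters that NRF2 and AhR are known to bind, because the called members of both lists moved mostly one way. The letters were TGACNNNGC for the antioxidant response element and GCGTG for the xenobiotic response element, on both strands. RefSeq promoters of assembly GRCr8 matched 23 of the 30 called members, of which 8 held the former, 10 the latter and 14 either. Tipin is counted in both the 8 and the 10. Aldh3a1, Cyp1a1, Hmox1, Txnip, Prdx6 and Ptgr1 were among the called members with no entry in the promoter table and were not searched. Over all 33469 promoters the shares were 10.1% and 25.9%, and over the 9299 promoters of tested genes 12.5% and 42.6%. These shares count promoters, whereas a member counted once if any of its promoters matched. A match is a description of letters, not of binding. The windows of the 4 searched members with the smallest adjusted p that hold a match are given 5′ to 3′ on the gene's strand, with matched letters in capitals.
Gstp1: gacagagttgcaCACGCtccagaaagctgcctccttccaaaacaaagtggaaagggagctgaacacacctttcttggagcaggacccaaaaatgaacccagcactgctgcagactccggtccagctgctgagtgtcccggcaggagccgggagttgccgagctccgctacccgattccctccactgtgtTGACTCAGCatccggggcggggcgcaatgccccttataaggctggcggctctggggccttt
Nqo1: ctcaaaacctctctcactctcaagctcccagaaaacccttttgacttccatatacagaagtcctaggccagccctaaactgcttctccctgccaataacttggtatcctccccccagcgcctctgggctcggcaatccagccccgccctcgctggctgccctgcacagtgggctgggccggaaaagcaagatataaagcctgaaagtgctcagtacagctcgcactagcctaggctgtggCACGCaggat
Akr7a3: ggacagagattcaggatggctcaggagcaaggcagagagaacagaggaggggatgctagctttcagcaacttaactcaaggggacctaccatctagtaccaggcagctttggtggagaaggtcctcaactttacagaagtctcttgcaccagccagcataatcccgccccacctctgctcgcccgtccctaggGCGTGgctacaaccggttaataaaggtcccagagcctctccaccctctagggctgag
Me1: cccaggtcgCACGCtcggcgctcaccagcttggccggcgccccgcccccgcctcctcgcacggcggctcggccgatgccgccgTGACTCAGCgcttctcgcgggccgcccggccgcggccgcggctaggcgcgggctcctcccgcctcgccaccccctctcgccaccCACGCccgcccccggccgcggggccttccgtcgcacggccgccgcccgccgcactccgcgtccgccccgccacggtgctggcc
The Gstp1 window (chr1:210769706-210769955, minus strand) holds an antioxidant core whose first base lies 61 bases before the start and a xenobiotic core at 238. In Nqo1 (chr19:52220268-52220517, minus strand) a xenobiotic core begins 10 bases before the start. Akr7a3 (chr5:156876471-156876720, plus strand) has 1 at 57. Me1 (chr8:96540245-96540494, minus strand) has an antioxidant core at 167 and xenobiotic cores at 241 and 83. Gstp1 and Me1 thus hold both sets of letters although their differences, 2.19 and 0.19, lie far apart.

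Of 23 glutathione transferase genes, whose enzymes attach glutathione to electrophiles, 7 were higher and 2 lower (1 lower without naphthalene 1). These calls made up 39.1% of the list, beside 24.9% of all genes, and 7 of the 9 also passed with the slide block. Gsta2 read 3.88, 3.999 and 4.09 with the diol and 2.78, 2.88 and 2.91 with naphthalene, a 2.19-fold difference (1.13 ± 0.0714, adjusted p = 1.67e-06). Gsta5 and Gsta3, further alpha-class members, were higher by 0.77 ± 0.063 and 0.48 ± 0.0462. Gsta6 was lower by 0.17 ± 0.0376 (adjusted p = 0.00876, and 0.0786 with the block). The alpha-class sequences are close, so probes may share signal, and the values of single members are uncertain.

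Aldehyde dehydrogenases and reductases, which share Aldh3a1, Akr1b8, Nqo1 and Akr7a3 with the lists above, had 10 of 38 higher and 4 lower. The 4 became 2 without diol 1, naphthalene 1 or naphthalene 3. The calls made up 36.8% of that list, beside 24.9% of all genes, and 6 of the 14 also passed with the slide block. Glucuronidation and sulfation genes had 5 of 27 higher and 2 lower, close to the shares of all genes. The 5 became 3 without diol 1, naphthalene 1 or naphthalene 2, and the 2 became 1 without any 1 of the 6 arrays except diol 3. One of the lower calls was Ugt2a1 (-0.43 ± 0.141), which turned to 0.01 on slide 2. Ugt2b7, a glucuronosyltransferase well above background on 2 of the 3 naphthalene arrays, was at least 2.90-fold higher (1.58 ± 0.164, adjusted p = 7.17e-05). Ugdh makes the glucuronic acid donor and was higher by 0.63 ± 0.0744 (adjusted p = 0.000156). Sult1a1, the phenol sulfotransferase, was lower by 0.21 ± 0.0366 (adjusted p = 0.00188). For Ugt1a6, which conjugates phenols, the probes disagreed: the brighter gave -0.08 (interval -0.16 to 0.003) and the dimmer 0.69. A like split held for the cystine carrier gene Slc7a11, at -0.06 (interval -0.23 to 0.11) and 1.32.

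P450 genes of families 2 to 4 and their regulators leaned upward by smaller amounts, with a median of 0.15 (0.09 on slide 2). Of 43 genes 12 were higher and 5 lower (3 lower without diol 1, diol 3 or naphthalene 1). The shares of all genes were 11.3% and 13.7%, and 8 of the list's 17 calls also passed with the slide block. Cyp2a2 and Cyp2a1, steroid hydroxylases, were higher by 0.55 ± 0.0717 and 0.42 ± 0.056. Cyp2b3 was higher by 0.37 ± 0.0484, and Cyp3a2, a male-predominant member, by 0.73 ± 0.102 (adjusted p = 0.000485). For Cyp3a2 the contrasts with DMSO were 0.33 with the diol and -0.40 with naphthalene. The main drug-inducible Cyp3a23-3a1 differed by 0.15 (interval -0.002 to 0.30, adjusted p = 0.134). Cyp2j3, which acts on arachidonic acid, was lower by 0.39 ± 0.0863 (adjusted p = 0.00775, and 0.19 with the block). Near-identical P450 genes may share probe signal, and Cyp2b1 and Cyp7a1 were not tested here.

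Alas1, which starts heme synthesis for P450s, read 4.69, 4.81 and 4.62 with the diol against 3.77, 3.81 and 3.71. The groups lay apart by 0.94 ± 0.0653 (1.92-fold, adjusted p = 3.72e-06), and by 0.85 on slide 2. It led a list of 32 heme, iron and metal genes with 8 higher and 2 lower, 31.2% called beside 24.9% of all genes. The 8 became 5 without diol 2, and the 2 became 1 without diol 3 or any 1 naphthalene array. Tfrc, the transferrin receptor, was higher by 0.42 ± 0.0526, and the metalloreductase Steap4 was lower by 0.93 ± 0.194 (adjusted p = 0.000236 and 0.00562). The metallothionein Mt1 differed by 0.13 ± 0.0387 (adjusted p = 0.0257), a call lost without diol 2, naphthalene 2 or naphthalene 3 (adjusted p up to 0.103).

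Among transporters of drugs, conjugates and bile acids, Abcc3, an exporter of glucuronides toward blood, was higher by 0.55 ± 0.0746 (adjusted p = 0.00039). The bile salt pump Abcb11 was lower by 0.24 ± 0.0389 (adjusted p = 0.00145). Abcc2, an exporter toward bile, differed by 0.20 ± 0.051, a call lost without diol 2 (adjusted p = 0.0581). Of 23 drug and conjugate transporters 3 were higher and 4 lower (5 higher without diol 3, 2 lower without naphthalene 1). Of 20 bile acid genes 2 were higher (1 without diol 2) and 3 lower. These calls made up 30.4% and 25% of the lists, near the 24.9% of all genes. Both lists had median differences of 0.06, which turned to -0.01 and -0.04 on slide 2.

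Heat shock chaperones were higher with the diol in 12 of 28 genes and lower in 2, 50% called beside 24.9% of all genes. Hspb1, a small heat shock protein that binds unfolding proteins and actin, read 2.76, 2.43 and 2.38 against 0.04, 0.02 and -0.13. It was 5.84-fold higher (2.55 ± 0.0996, adjusted p = 1.73e-08), and 2.40 higher on slide 2. The others were smaller: the HSP90 cochaperones Stip1, Fkbp4 and Ahsa1 were higher by 0.43 ± 0.0434, 0.41 ± 0.0425 and 0.38 ± 0.046. For Stip1 and Ahsa1 the contrasts with DMSO had opposite signs, 0.30 and 0.22 with the diol, -0.13 and -0.16 with naphthalene. Hspa8, the constitutive HSP70, was lower by 0.24 ± 0.0316 (adjusted p = 0.000374). The list's median was 0.17 (0.12 on slide 2), and 12 of the 14 calls also passed with the slide block. The 2 lower calls became 1 without diol 1, naphthalene 1 or naphthalene 2.

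Proteasome subunits had 22 of 35 genes higher and 0 lower, the largest share of calls among the lists (62.9%, beside 24.9% of all genes). By limma's unadjusted p below 0.05, 26 were higher and 0 lower. In size the differences were modest, with a median of 0.18 (0.17 on slide 2). Psmb3, a subunit of the catalytic core, read 3.96, 4.11 and 4.05 with the diol and 3.56, 3.63 and 3.60 with naphthalene. The groups lay apart by 0.44 ± 0.048 (adjusted p = 9.42e-05). Psmd14, the deubiquitinase of the regulatory cap, was higher by 0.57 ± 0.053, Psmd12 of the cap by 0.34 ± 0.0363 and Psma5 of the core by 0.32 ± 0.0367. Against DMSO the list's median was 0.09 with the diol and -0.12 with naphthalene, and Psmd14 differed by 0.27 and -0.30. With the slide block 11 of the 22 calls passed.

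**Figure D3:**
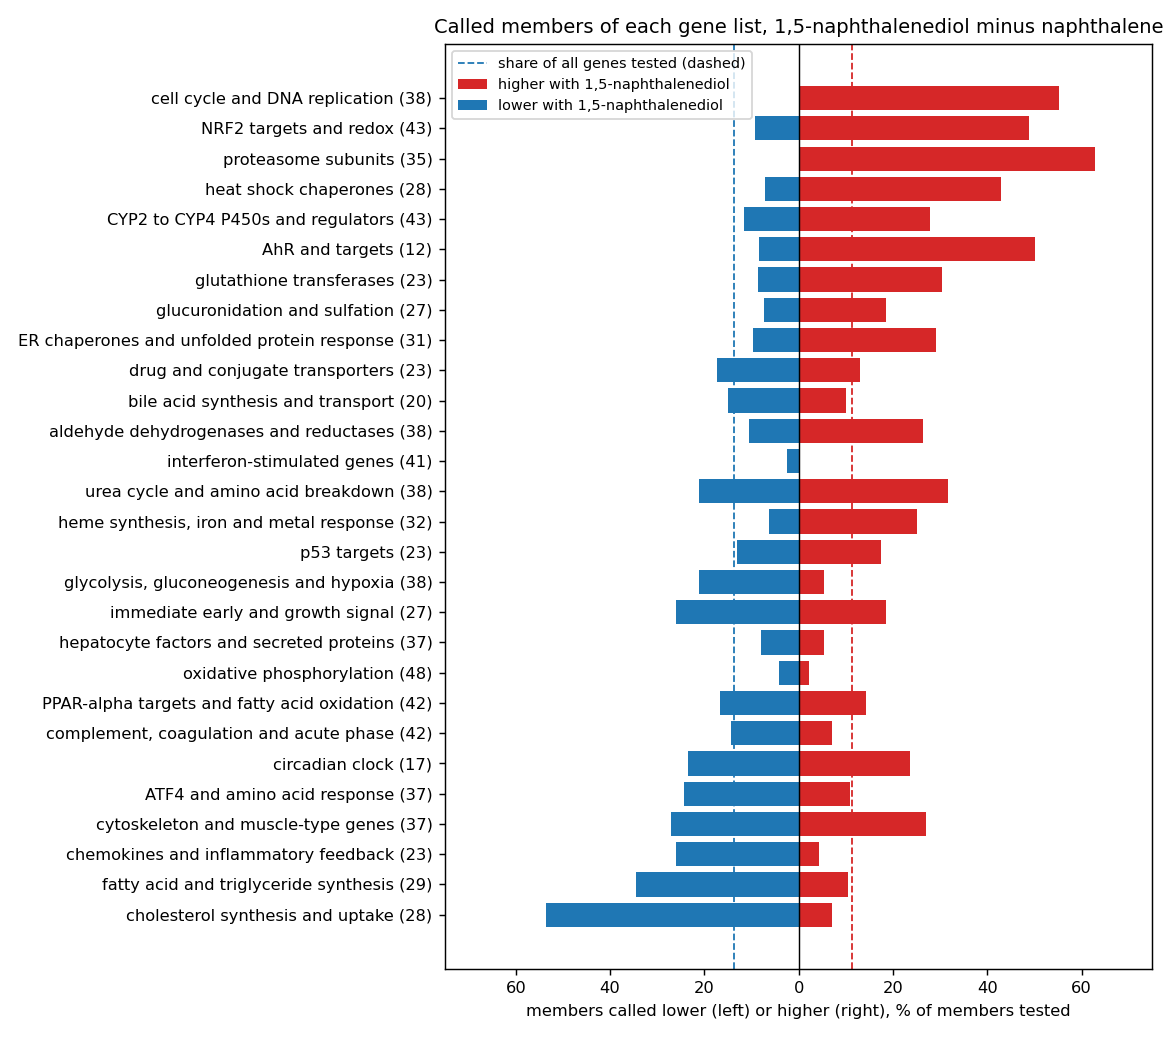
Share of tested members (number in brackets) of each gene list called lower (left, blue) or higher (right, red) with 1,5-naphthalenediol than with naphthalene, in percent; dashed lines mark the shares of all genes, 13.7% lower and 11.3% higher. Lists are ordered by their median difference, from cell cycle at the top to cholesterol synthesis at the bottom.

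Of 31 genes of endoplasmic reticulum chaperones and the unfolded protein response 9 were higher and 3 lower. These calls made up 38.7% of the list, beside 24.9% of all genes, and the median was 0.06 (0.02 on slide 2). Only 2 of these calls also passed with the slide block. The cochaperones Dnajb9 and Dnajb11 were both higher by 0.26 (± 0.0349 and ± 0.0401). Herpud1, an ER degradation factor, was higher by 0.32 ± 0.0549 (adjusted p = 0.00198, and 0.0738 with the slide block). Ppp1r15a, which restores translation after stress, was lower by 0.28 ± 0.0588 (adjusted p = 0.00584, and 0.0994 with the block). The ATF4 and amino acid response list had 4 of 37 higher (2 without diol 1) and 9 lower. This list had 35.1% of its members called, and 7 of the 13 calls also passed with the slide block. Its member with the smallest adjusted p, Slc3a2, the heavy chain of amino acid exchangers, was higher by 0.54 ± 0.0506 (adjusted p = 3.95e-05), made of 0.14 for the diol and -0.40 for naphthalene against DMSO. Asparagine synthetase Asns was lower by 0.24 ± 0.0335, the stress regulator Nupr1 by 0.37 ± 0.0588 and the hormone gene Fgf21 by 0.41 ± 0.0619 (adjusted p = 0.000468, 0.0012 and 0.000755). The stress genes Atf3, Ddit3 and Gdf15 did not pass, at -0.15 (interval -0.33 to 0.03), -0.06 (-0.31 to 0.20) and -0.22 (-0.48 to 0.04).

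Cell cycle and DNA replication genes were higher in 21 of 38 members and lower in 0 (2 lower without diol 3). These calls made up 55.3% of the list, beside 24.9% of all genes. By limma's unadjusted p below 0.05, 22 were higher and 2 lower. Their median of 0.24 (0.18 on slide 2) was the highest of the lists, and 12 of the 21 calls passed with the slide block. Cdc45, which opens the replication fork with the MCM helicase, read -1.75, -1.66 and -1.63 with the diol and -2.21, -2.32 and -2.14 with naphthalene. The difference was 0.54 ± 0.0628 (adjusted p = 0.000142). Ccne1, the cyclin of S phase entry, was higher by 0.51 ± 0.0524, the mitotic checkpoint kinase gene Bub1 by 0.40 ± 0.0453 and the replication clamp Pcna by 0.39 ± 0.0491. Cdc45 differed from DMSO by 0.60 with the diol and by 0.06 with naphthalene, while for Pcna the values were 0.19 and -0.20. Of 23 p53 targets 4 were higher and 3 lower, 30.4% beside 24.9% of all genes, and 0 passed with the slide block. The 4 became 0 without diol 1 and 1 without diol 2, and the 3 became 1 without any 1 array other than naphthalene 3. The arrest gene Cdkn1a was the only one of the 4 named members whose call held when each array was left out, at -0.14 ± 0.0352 (adjusted p = 0.0129). Its call was lost with each array's median subtracted, with no filter on dim probes, on the mean of its probes, with the 6 arrays alone, with the slide block and on slide 2 alone, and its other probe gave 0.10.

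Genes of the cytoskeleton and of muscle type split evenly, 10 of 37 higher and 10 lower, 54.1% called beside 24.9% of all genes. All but 3 of the higher ones were tubulins. Tuba4a, an alpha-tubulin, read 4.62, 4.58 and 4.64 with the diol and 3.92, 3.95 and 3.96 with naphthalene (difference 0.67 ± 0.0369, adjusted p = 6.22e-07). Tubb5, a beta-tubulin, was higher by 0.57 ± 0.0374, and, outside the list, Tuba3a, well above background on 1 of the 3 naphthalene arrays, at least 2.66-fold (1.82 ± 0.261). Against DMSO Tuba4a and Tubb5 differed by 0.45 and 0.33 with the diol and by -0.21 and -0.24 with naphthalene. Tubulin genes are close copies, so their probes may share signal. The microtubule-associated Cimap2 and the actin-binding Coro1a were dim on every naphthalene array and at least 3.80-fold and 2.63-fold higher with the diol (measured differences 3.53 ± 0.271 and 3.33 ± 0.348).

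The lower members of this list included Myl2, Mybpc3 and Tagln. Myl2, a myosin light chain of slow and cardiac muscle, read -6.54, -6.20 and -6.43 with the diol and -4.59, -4.67 and -4.38 with naphthalene. Its diol levels were close to the lowest signal well above background on those arrays (-6.97, -6.87 and -7.15). The 3.59-fold difference (-1.85 ± 0.149, adjusted p = 1.27e-05) was the largest decrease among genes well above background on all 6 arrays that also held on slide 2. Mybpc3, a myosin-binding protein well above background on 2 of the 3 diol arrays, was at least 3.01-fold lower (-1.59 ± 0.216, adjusted p = 0.000408), and, outside the list, Pln, the inhibitor of the sarcoplasmic calcium pump, was 2.13-fold lower (-1.09 ± 0.114, adjusted p = 7.51e-05). Muscle genes outside the list did not all go this way, and Csrp3, a LIM protein of striated muscle, was higher by 1.59 ± 0.199 (adjusted p = 0.000237). Tagln, a smooth muscle and stellate cell marker, was lower by 0.45 ± 0.103 (adjusted p = 0.00902, and 0.11 with the slide block). The summed level of the 10 stellate cell and fibroblast markers, in units of the 75th percentile, was 2.06 to 2.26 on the diol arrays and 2.61 to 3.25 on the naphthalene arrays. Of these markers 4 were well above background (Acta2, Col1a2, Des and Tagln), and Col1a1, Col3a1, Pdgfrb, Lrat, Dcn and Lum were not. Their part in the lower muscle-type genes was not tested.

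Cholesterol synthesis was the list with most decreases. Of 28 genes 15 were lower and 2 higher with the diol, 60.7% called beside 24.9% of all genes. The median was -0.19 (-0.20 on slide 2), and 12 of the 17 calls also passed with the slide block. Fdps, which makes farnesyl diphosphate, read 4.06, 4.06 and 3.999 with the diol and 4.50, 4.44 and 4.43 with naphthalene. The difference was -0.42 ± 0.0405 (adjusted p = 4.59e-05), and both compounds lay below DMSO, by 0.60 and 0.18 on the log2 scale. Idi1, Hmgcs1 and Acat2, enzymes of the early steps, were lower by 0.48 ± 0.0551, 0.41 ± 0.0485 and 0.35 ± 0.0412. The 2 higher members became 0 without diol 1, diol 2 or naphthalene 2, and 1 without naphthalene 1.

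Fatty acid and triglyceride synthesis went the same way, with 10 of 29 genes lower and 3 higher and a median of -0.13 (-0.19 on slide 2). The calls made up 44.8% of the list, beside 24.9% of all genes. Fasn, the fatty acid synthase, read 1.42, 1.54 and 1.31 with the diol against 2.13, 2.16 and 2.06. It was 1.62-fold lower (-0.69 ± 0.0825, adjusted p = 0.000163), and DMSO lay between them: the diol differed from it by -0.33 and naphthalene by 0.37. Acly, which makes cytosolic acetyl-CoA, was lower by 0.61 ± 0.062, Acss2, its acetate-using counterpart, by 0.38 ± 0.0555, and Dgat2, the last step of triglyceride synthesis, by 0.24 ± 0.0338. Me1 was the higher member with the smallest adjusted p.

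Other fuel pathways differed less. PPAR-alpha targets and fatty acid oxidation genes had 6 of 42 higher and 7 lower, the 6 becoming 3 without diol 1 and 2 without diol 2. These calls made up 31% of the list, beside 24.9% of all genes, and 4 of them also passed with the slide block. Ppara itself was higher by 0.33 ± 0.0759 (adjusted p = 0.00939, and 0.264 with the slide block), while its targets Angptl4 and Cpt1b were lower by 0.34 ± 0.0706 and 0.40 ± 0.0918. Glycolysis, gluconeogenesis and hypoxia genes had 2 of 38 higher and 8 lower, 26.3% called. The 2 higher became 1 without diol 1 and 4 without diol 3. The pyruvate kinase Pklr was lower by 0.40 ± 0.0626 and the kinase Pdk2 by 0.35 ± 0.044, and Ankrd37, a hypoxia-responsive gene, was higher by 0.59 ± 0.0769. Of 48 oxidative phosphorylation genes 1 was higher and 2 were lower, below the share of all genes. The counts became 0 and 0 without diol 2 and 4 and 4 without diol 3, and the lower count 0 without diol 1 and 1 without naphthalene 3.

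Amino acid breakdown and the urea cycle had calls in 20 of 38 genes (52.6%), 12 higher and 8 lower (4 lower without naphthalene 1). Of the 20 calls 7 also passed with the slide block, and the list's median of 0.04 turned to -0.01 on slide 2. Aass, which starts lysine breakdown, was higher by 0.91 ± 0.0933 and Tat, the tyrosine aminotransferase, by 0.79 ± 0.083 (adjusted p = 6.83e-05 and 7.82e-05). Tat was 0.38 above DMSO with the diol and 0.41 below it with naphthalene on the log2 scale. Tdo2, which opens the tryptophan ring, was higher by 0.36 ± 0.06, and Kynu, further down that path, was lower by 0.39 ± 0.042. Of 37 hepatocyte factors and secreted proteins 2 were higher and 3 lower (5 without diol 2), 13.5% called. Complement, coagulation and acute phase genes had 3 of 42 higher (5 without diol 3) and 6 lower, 21.4% called beside 24.9% of all genes. The fibrinogen chain Fgb was higher by 0.28 ± 0.0362 and the inhibitor chain gene Itih3 lower by 0.21 ± 0.0388.

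**Figure D4:**
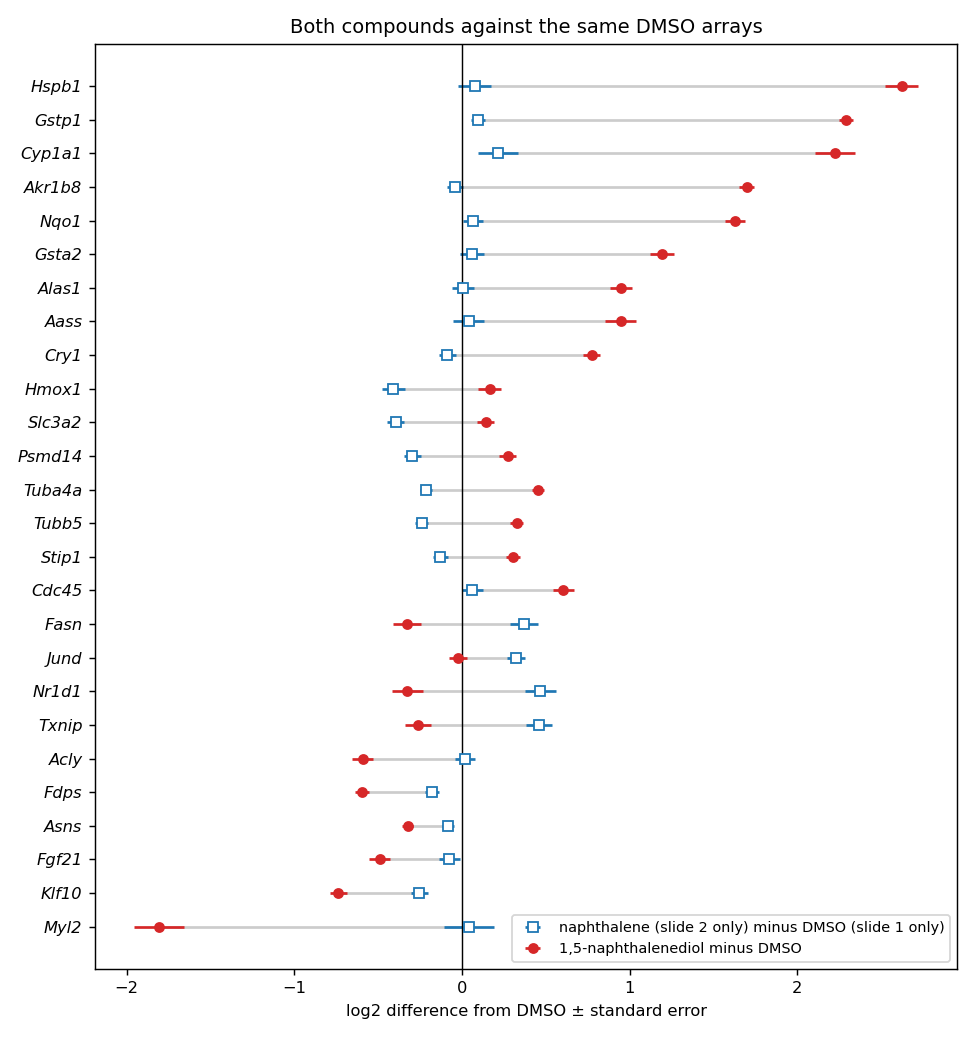
For 26 genes, log2 difference from DMSO ± standard error of 1,5-naphthalenediol (filled circles) and naphthalene (open squares), joined by a grey line whose length is the difference between the compounds. Hspb1, Gstp1 and Akr1b8 lie near 0 with naphthalene, whereas Hmox1, Slc3a2, Psmd14, Fasn, Nr1d1 and Txnip lie on opposite sides of 0; both sets of differences share the DMSO arrays.

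Clock and signalling genes gave further clear differences. Cry1, a repressor of the circadian clock, read -0.67, -0.70 and -0.80 with the diol and -1.54, -1.65 and -1.56 with naphthalene (difference 0.86 ± 0.0517, adjusted p = 1.13e-06). The clock repressors Nr1d1 and Nr1d2 were lower by 0.80 ± 0.0923 and 0.46 ± 0.0436. In all 4 of 17 clock genes were higher (2 without diol 1 or naphthalene 2) and 4 lower (2 without naphthalene 2), 47.1% called beside 24.9% of all genes. Socs3, a feedback inhibitor of cytokine signals, was higher by 0.70 ± 0.0457 (adjusted p = 2.38e-06) on its brighter probe, while its other probe gave 0.09. Among 27 immediate early and growth signal genes 5 were higher and 7 lower, 44.4% called. Of these 12 calls 4 also passed with the slide block. Klf10 and Jund, transcription factors of growth control, were lower by 0.48 ± 0.0528 and 0.35 ± 0.0536. The other probe of Jund gave -0.11 and was not called.

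Of 23 chemokine and inflammatory feedback genes 1 was higher, Socs3 (2 higher without naphthalene 3), and 6 were lower, 30.4% called beside 24.9% of all genes. The 6 became 2 without diol 1, diol 2 or naphthalene 2. Icam1, an adhesion molecule, read 1.87, 1.86 and 1.87 with the diol and 2.28, 2.23 and 2.14 with naphthalene (difference -0.35 ± 0.0478, adjusted p = 0.00044). The summed level of the 10 macrophage markers was 0.0896 to 0.104 on the diol arrays and 0.1003 to 0.108 on the naphthalene arrays, with only Cd68 and C1qb well above background. Their part was not tested. Of 41 interferon-stimulated genes 0 were higher and 1 was lower, Irf1, whose call was lost without diol 1, diol 2 or naphthalene 3. At limma's unadjusted p below 0.05 the counts were 2 and 1. The list's median was 0.05, and 0.29 on slide 2, and ranged from -0.06 to 0.29 over the alternatives tried. Rsad2, an antiviral gene picked out after its value was seen, read 1.25, 1.52 and 0.71 with the diol and -1.76, -1.04 and 0.20 with naphthalene. Its difference of 2.03 ± 0.929 did not pass (adjusted p = 0.129), although the groups did not overlap. Against DMSO the list medians were -0.87 for the diol and -0.92 for naphthalene. These medians were not tested, and naphthalene and DMSO share no slide. The antiviral gene Mx1 read -1.39, -1.52 and -0.63 with the diol and -1.54, -0.83 and -0.88 with naphthalene, so the groups overlapped. Its difference of -0.10 had an interval of -1.09 to 0.90, and was 0.46 on slide 2.

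Outside the lists, the largest increases among genes well above background on all 6 arrays included Sh3tc1 (1.94 ± 0.215), Il1rl1, the receptor of interleukin 33 (1.63 ± 0.163), Csrp3, Uchl1, a ubiquitin hydrolase (1.45 ± 0.0553), and Cst6, a cysteine protease inhibitor (1.41 ± 0.0685). Il1rl1 read -0.03, 0.04 and 0.16 with the diol and -2.03, -1.39 and -1.30 with naphthalene. Uchl1 read 0.39, 0.34 and 0.30 against -1.06, -1.18 and -1.06. Neither gene's groups overlapped, which also held for 4543 of the 4935 called genes. Naphthalene differed from DMSO by -0.11 for Il1rl1 and by 0.14 for Uchl1. The largest decreases, after Myl2, were Fbxo32, a muscle ubiquitin ligase gene (-1.20 ± 0.142), Birc7, an inhibitor of apoptosis (-1.13 ± 0.0861), Fam107a (-1.12 ± 0.0796) and Kctd15 (-1.10 ± 0.149). Epn3, Tbkbp1 and Klhdc8a followed at -0.99, -0.98 and -0.93. Among genes dim on some diol arrays, the tachykinin gene Tac4 was at least 2.67-fold lower and the tubulin polymerization gene Tppp3 at least 2.43-fold lower. The bounds for Or6z5 and Nudt17 were 1.95-fold and 1.84-fold. Of the 3 diol arrays, 2 measured Tac4 and Nudt17 well above background and 1 measured Tppp3 and Or6z5. Both Or6z5 and Nudt17 missed the threshold with the slide block (adjusted p = 0.115 and 0.116), and Nudt17 also without diol 1.

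Most markers of the remaining cell types were not well above background, and those tested gave few calls. Epcam, a bile duct marker, was lower by 0.28 ± 0.0726 (adjusted p = 0.0172), a call lost without naphthalene 3. The summed level of the 8 bile duct markers was 0.539 to 0.552 on the diol arrays and 0.648 to 0.681 on the naphthalene arrays. Cdh5, an endothelial marker, was lower by 0.42 ± 0.0953 (adjusted p = 0.0085, and 0.226 with the slide block). The 3 endothelial markers tested went both ways, up to 0.61 higher without a call. Their median was -0.15, and 0.04 on slide 2. The summed endothelial level, 1.74 to 2.18 against 2.09 to 2.17, overlapped. The only lymphocyte marker well above background, Nkg7, was not called. The part of these cells in other results was not tested.

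The last group to describe is the 62 genes that turned sign on slide 2. For them the median level relative to naphthalene was -0.92 and -0.88 on diol 1 and 2 but 0.02 on diol 3. On the other slide 1 arrays (DMSO and 2,7-naphthalenediol) it was -0.87 to -0.59, and on the remaining slide 2 arrays -0.03 to 0.05. Slide 1 holds no naphthalene array, so the 2 compounds cannot be compared there, and on slide 2 diol 3 lay with naphthalene. Only 9 carry a symbol, and the 3 with the largest differences were Rps19l3, Pcyox1l and Ncf1 (-0.76 ± 0.233, -0.71 ± 0.223 and -0.60 ± 0.196, each about 0.02 or 0.01 on slide 2). Rps19l3 read -0.51, -0.66 and 0.58 with the diol and 0.63, 0.52 and 0.52 with naphthalene. Across all genes 239 differed by at least 1 log2 unit between the slides within the diol group, 209 of them lower on slide 1, and 65 of the 239 were called. The 3 named calls were lost without diol 1 or 2 and under several other choices, and are reported here as slide-dependent values.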

How the data were processed

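Total RNA of each hepatocyte sample was labelled with Cy3 and hybridised to a one-colour Agilent rat array, per the labels' protocols. The deposited files hold 1 intensity per spot, which the authors made with Feature Extraction 10.7.1.1; per the file headers it had background subtracted and was not normalized between arrays. The headers name build rn4, so gene coordinates come only from RefSeq GRCr8.

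Each array's 75th percentile over 58717 gene spots was subtracted from log2 intensity, without control spots and 250 to 354 spots per array marked as outliers. No gene spot was saturated. Spots of 1 probe were averaged, and 21229 of 45598 probes took a symbol through their accession. A probe was kept where 1 of the 5 groups or more had it well above background on each of its 3 arrays, which left 23541, less 7 with missing values. The brightest probe stood for a gene, leaving 19783 genes, 10489 with a symbol. Of 207 list or named genes with several probes, 10 had another probe called with the opposite sign, among them Slc7a11, Ugt1a6, Sqstm1, Cebpb and Cyp2c7.

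One limma 3.58.1 model (R 4.3.3) of 5 group means over 15 arrays gave moderated differences, 95% intervals and two-sided Benjamini-Hochberg adjusted p over all genes, with 0.05 as threshold. The number of arrays limits precision. Replicate numbers stand in the titles but do not pair the arrays: 2 of 30 same-number pairs, and 0 of the 3 between diol and naphthalene, correlated above 0.1.

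The members and the gene lists were chosen with earlier results of these data known. Genes were named by rule: key genes; the 10 largest differences each way well above background on all 6 arrays and held on slide 2; the 5 largest bounds each way; per list up to 4 called members by smallest adjusted p and 1 of the opposite direction; and 3 genes whose sign turned with the slide. Exceptions are said to be picked after their values were seen, and members given without a statistic illustrate a list. Some genes that the rule names are not reported here. Alternatives covered scaling, background correction, the filter on dim probes, probe choice, the slide, the replicate number and leaving out each array.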

Additional observations from a re-analysis of the deposited data

How the results depend on the processing

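The count of 4935 genes rested on the pooled spread of 15 arrays and on both slides. It was 2527 (1175 higher, 1352 lower) with no filter on dim probes, 1187 (561 and 626) with the 6 arrays alone, 1677 (710 and 967) with the slide as a fixed block, 3451 with it as a random block, and 381 (169 and 212) on slide 2 alone. Leaving out 1 array gave 3146 (without 1,5-naphthalenediol 2) to 5857 genes (without 1,5-naphthalenediol 3), 1495 to 2431 higher and 1651 to 3426 lower. Genes of 2-fold or more, 125 in all, numbered 16 after normexp background correction with an offset of 50, which shrinks dim differences, 53 among genes well above background on all 6 arrays, 83 with the 6 arrays alone and 60 on slide 2 alone. They numbered 93 to 281 with 1 array left out. The 307 calls among 846 genes of the lists became 200 without the filter, 123 with the 6 arrays alone, 159 with the fixed slide block and 55 on slide 2 alone (243 to 327 with 1 array left out). Of the genes named, 138 were called, and 91 with the 6 arrays alone, 50 on slide 2 alone and 123 to 137 with 1 array left out. A replicate block, although the numbers do not pair the arrays, called 4646 genes, 4443 of them shared and in the same direction, and changed no call of a named gene. Differences that turned sign were Slc7a11 (0.63) and Ugt1a6 (0.31) on the mean of kept probes, and, both with the fixed slide block and on slide 2 alone, Ddit3 (0.13), Mx1 (0.46), Rps19l3 (0.0185), Pcyox1l (0.0138) and Ncf1 (0.0228). With 1 array left out Ddit3 ranged from -0.147 to 0.0195 and turned only without 1,5-naphthalenediol 2. Mx1 ranged from -0.374 to 0.0750, turning without 1,5-naphthalenediol 1 or 2 or naphthalene 2 or 3, and was 0.0330 with the random slide block. Apart from the values given here, the cause of each change was not tested. Signal over background limits the dim genes, whose folds are lower bounds. Normexp on mean signals could not be run, since the deposited tables used here hold median signals, and the choice of the median was made after the data were seen.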
